A study of Mus musculus with 4 samples.

Results

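The 10 genes described here are regulators of adipocyte formation and handlers of fatty acids, namely Pparg, Cebpa, Cebpb, Cebpd, Lpl, Cd36, Fabp4, Plin2, Adipoq and Zfp423. They were taken by symbol, and all 10 were found among the 32290 features of the tables. Fat tissue of mice with endothelium-specific Tert knockout had been dissociated and profiled by droplet single-cell RNA sequencing, which counts unique molecular identifiers (UMIs, tags of single captured RNA molecules) per gene and cell. Each of the 4 libraries stood for 1 group, subcutaneous (SC) or visceral intraperitoneal (IP) fat of WT or KO mice, so genotype and depot could not be tested. KO mice were Tie2e-cre; TERTfl/fl; mTmG and WT mice were Tie2e-cre; TERT+/+; mTmG, so that the recombinase and the mTmG reporter were common to both genotypes. The recombinase is driven by Tie2 regulatory sequence and is meant to act in endothelial cells. Whether it also acted in the stromal and immune cells below was not examined here. All mice were males of 7 months that had been on high-fat diet for 5 months, and how many mice were pooled per library is not given. Preparation of the stromal vascular fraction leaves most mature adipocytes behind, and the protocol in the labels speaks of cells in some steps and of nuclei in others.

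Adipocytes form from stromal progenitors through a cascade of transcription factors. Cebpb and Cebpd encode C/EBP factors that act early in the cascade, Zfp423 encodes a zinc finger factor of committed preadipocytes, and Pparg and Cebpa encode the nuclear receptor and the C/EBP factor that drive terminal differentiation and the genes of lipid storage. Lpl encodes the lipase that frees fatty acids from circulating triglyceride, Cd36 a fatty acid uptake receptor, Fabp4 a fatty acid binding protein of the cytosol, Plin2 a coat protein of small lipid droplets, and Adipoq the adipocyte hormone adiponectin. Pparg, Cd36, Lpl and Plin2 are also known in macrophages that take up lipid, and Fabp4 and Cd36 in capillary endothelium.

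Of 4927 barcodes, 4026 remained after filtering, with 43166995 UMIs. The kept cells numbered 969 (WT) and 1867 (KO) in SC fat and 673 (WT) and 517 (KO) in IP fat, and their median depth lay between 6910 and 13054 UMIs per cell. Each cell took the class with the most detected markers out of 8 per class, with at least 3 needed, and no marker was one of the 10 genes. Adipose stromal cells (ASC) numbered 102 in WT SC and 123 in KO SC, with 283 in WT IP and 213 in KO IP, at median depths of 19990, 14240, 23019 and 20747 UMIs, and 16 of the 721 stood at the limit of 3 markers. T cells were the largest class of the SC libraries, with 465 cells in WT SC and 1163 in KO SC. Macrophage-like cells reached 20 cells in IP fat alone, with 68 in WT and 23 in KO, and 26 of all 95 such cells stood at the limit of 3 markers. Blood endothelial-like cells, the cells the recombinase addresses, numbered between 1 and 9 per library and were too few to compare. Tert had between 2 and 9 UMIs per library, too few to check the knockout. KO SC and WT IP shared 93 barcodes, against at most 1 in any other pair of libraries. In KO SC these 93 had a median of 601 UMIs, while in WT IP they had a median of 35392, and 99.1% of the genes seen in the KO SC copy were also seen in its WT IP copy, against 83.6% in the copy of another shared barcode. They were left out of KO SC, a choice made after the data were seen. Keeping them would have raised the ASC of KO SC from 123 to 198 cells while adding 47494 UMIs, and the main values that rest on them are given both ways below.

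The promoters of 3 of the genes are shown because their transcripts separated the ASC subsets described further on, each as the 250 bases before a transcription start in RefSeq on GRCm38.p6. Of the 10 genes, 7 had an entry in that table, with 10 starts in all, and Pparg had 3 of these. Capitals mark 4 short motifs found on either strand, the C/EBP-type motif TTGCNNAA, the CCAAT box, the nuclear receptor motif AGGTCA and TATAAA.
Pparg, chr6:115421816-115422065, plus strand: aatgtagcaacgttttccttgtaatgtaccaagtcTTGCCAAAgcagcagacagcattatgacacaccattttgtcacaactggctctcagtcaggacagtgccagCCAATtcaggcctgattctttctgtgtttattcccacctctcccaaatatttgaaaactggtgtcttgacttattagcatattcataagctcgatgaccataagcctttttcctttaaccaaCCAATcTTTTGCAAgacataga
Cebpa, chr7:35119043-35119292, plus strand: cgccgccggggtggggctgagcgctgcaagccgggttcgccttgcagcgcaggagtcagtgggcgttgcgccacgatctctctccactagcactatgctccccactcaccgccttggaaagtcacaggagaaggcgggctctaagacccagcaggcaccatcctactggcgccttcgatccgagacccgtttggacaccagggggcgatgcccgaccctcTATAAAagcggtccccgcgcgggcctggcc
Plin2, chr4:86670060-86670309, minus strand: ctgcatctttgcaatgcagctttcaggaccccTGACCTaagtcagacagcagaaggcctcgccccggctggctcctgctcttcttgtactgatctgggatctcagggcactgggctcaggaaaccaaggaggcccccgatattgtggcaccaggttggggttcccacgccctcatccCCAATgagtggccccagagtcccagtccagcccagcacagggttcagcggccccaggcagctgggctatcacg
This Pparg window held TTGCNNAA at 215 to 208 and again at 16 to 9 bases before the start, the second match starting close to a CCAAT at 22 to 18 bases. The Plin2 window held AGGTCA, written on the other strand as TGACCT, at 218 to 213 bases and CCAAT at 73 to 69 bases before the start. The Cebpa window held TATAAA at 30 to 25 bases before the start. TTGCNNAA was in 2 of the 10 windows of these genes and in 9.56% of all 32851 windows of that length, CCAAT in 5 and in 33.8%, AGGTCA in 5 and in 14.0%, and TATAAA in 2 and in 12.4%. The direct repeat of AGGTCA with 1 base between its copies, which PPAR and RXR bind as a pair, was in 0 of the 10 windows and in 0.0335% of all. The letters alone do not show that a factor was bound in these cells.

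Among the differentiation drivers, Pparg (GRCm38 chromosome 6, 115360951 to 115490399, plus strand) was found in ASC and macrophage-like cells and was close to absent from lymphocytes. In ASC it had 77 UMIs in WT SC and 56 in KO SC, with 212 in WT IP and 135 in KO IP, or 42.6, 34.3, 34.5 and 30.6 per 1000000 UMIs of the class (CPM). Its UMIs lay in 18, 19, 80 and 46 ASC in the same order. T cells had at most 1 Pparg UMI per library at a median depth of 7650 to 9117 UMIs, and B cells had 0. Among sums of at least 20 cells, the macrophage-like cells of WT IP stood highest, with 242 UMIs and 214 CPM. Cebpa (chromosome 7, 35119293 to 35121928, plus strand) had 8.30 CPM in ASC of WT SC and 10.4 in KO SC, and 17.4 in WT IP and 15.7 in KO IP. It stood at 45.1 (WT) and 55.2 CPM (KO) in the macrophage-like cells of IP fat.

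The early C/EBP factors were spread over most ASC, with Cebpb seen in 77 of 102 cells of WT SC, 101 of 123 of KO SC, 236 of 283 of WT IP and 170 of 213 of KO IP. Cebpb (chromosome 2, 167688915 to 167690418, plus strand) stood at 626 CPM in ASC of WT SC and 833 in KO SC, and at 526 in WT IP and 538 in KO IP. It was the one gene of the group with a sizeable level in every class tested, with 221 to 318 CPM in T cells, 155 to 193 CPM in B cells, and 1658 and 1370 CPM in the macrophage-like cells of WT IP and KO IP. Cebpd (chromosome 16, 15887286 to 15891031, plus strand) stood at 484, 519, 590 and 415 CPM in ASC of WT SC, KO SC, WT IP and KO IP. In contrast to Cebpb, it had only 27 UMIs in all T cells and 3 in all B cells. Zfp423 (chromosome 8, 87661810 to 87959595, minus strand) stood at 31.0, 62.4, 28.5 and 32.2 CPM in ASC in the same order. It had 5 UMIs in all T cells, 1 in all B cells and 0 in the macrophage-like cells of IP fat.

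Of the genes of lipid handling, Lpl (chromosome 8, 68880491 to 68907448, plus strand) was seen in 70, 71, 234 and 176 ASC of WT SC, KO SC, WT IP and KO IP, at 817 (WT) and 581 CPM (KO) in SC fat and 1485 (WT) and 1295 CPM (KO) in IP fat. Fabp4 (chromosome 3, 10204088 to 10208576, minus strand) stood at 462, 486, 404 and 254 CPM, but was held by few cells in SC fat, with UMIs in 30 of 102 ASC of WT SC and 21 of 123 of KO SC, and a single cell gave 224 of the 794 UMIs of KO SC. Plin2 (chromosome 4, 86648386 to 86670060, minus strand) stood at 159, 110, 208 and 141 CPM in ASC, and also at 13.4 to 85.6 CPM in T cells and at 942 and 714 CPM in the macrophage-like cells of WT IP and KO IP. Cd36 (chromosome 5, 17781690 to 17888801, minus strand) was sparse in ASC, with 62 UMIs in 10 cells of WT SC and 48 in 7 cells of KO SC, 77 in 21 cells of WT IP and 3 in 2 cells of KO IP. Adipoq (chromosome 16, 23146536 to 23158028, plus strand) had 7 UMIs over all kept cells, of which 2 were in ASC of WT IP and none in the other ASC. Lep, a second adipocyte hormone gene, had 1 UMI in all kept cells, and no cell was placed as adipocyte-like.

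Among ASC, cells without a Fabp4 UMI had lower median depth than cells with one in KO SC, WT IP and KO IP. In WT SC the depths were close, at 19789 and 20105 UMIs. The shares were therefore also taken after thinning each cell to 2000 UMIs. Pparg was then seen in 5.56% of 90 ASC of WT SC, 2.63% of 114 of KO SC, 6.92% of 260 of WT IP and 5.21% of 192 of KO IP, against at most 0.221% of T cells in any library. Before thinning the shares were 17.6% (exact binomial 95% interval 10.8 to 26.4), 15.4% (9.56 to 23.1), 28.3% (23.1 to 33.9) and 21.6% (16.3 to 27.7) of ASC, against at most 0.820% (0.0208 to 4.48) of T cells. Fabp4 was seen in 26.7%, 14.0%, 26.2% and 26.0% of thinned ASC, against at most 0.820% of thinned T cells. In both genes the ASC of every library stood above the T cells, which show how much free RNA can add.

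**Figure D1:**
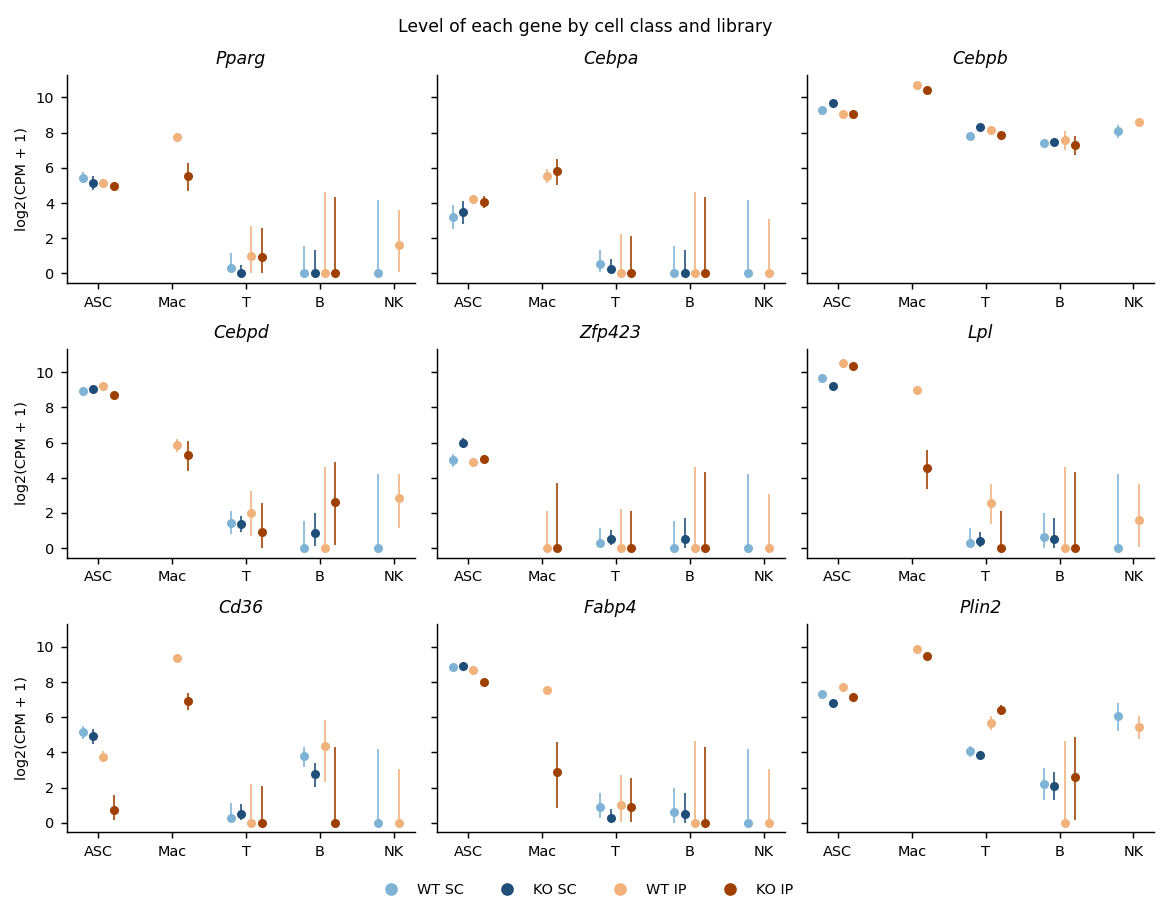
Level of each gene as log2(CPM + 1) in the class sums of each library with at least 20 cells, with exact Poisson 95% intervals that cover counting error only. Fabp4, Lpl and Cebpd stand high in ASC and near the bottom in T, B and NK cells, Cebpb is seen in every class, and Cd36, Plin2, Pparg and Cebpa reach their highest levels in the macrophage-like cells.

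The classes were compared within libraries, on UMI sums per class and library. ASC had more of 9 of the 9 genes tested than T cells in edgeR's quasi-likelihood test with Benjamini-Hochberg adjustment over 12113 genes, where 40.1% of all genes were higher in ASC and 25.9% lower. All 9 were also higher than in B cells, against 40.4% of all genes higher and 22.5% lower. They were higher than in NK cells as well, against 29.6% higher and 15.6% lower, with NK sums from 2 libraries. Cebpb had the smallest difference from T cells, with ASC higher by 1.46 on the log2 scale (SE 0.17, adjusted p = 5.6e-07), and from NK cells, with ASC higher by 1.22. From B cells it differed by 2.11. Plin2 was higher than in T cells by 2.44 (SE 0.34, adjusted p = 5.59e-06). Summed over the 4 libraries, the CPM of Lpl in ASC was 2229 times that in T cells (95% interval 1174 to 4876), with 9 UMIs in all T cells. Pparg, with 0 UMIs in B cells, was at least 53.5-fold higher in ASC, and Cebpa at least 23.2-fold higher, each set against a limit of 3 UMIs over all B cells. Fabp4, with 0 UMIs in NK cells, was at least 98.1-fold higher in ASC by the same limit. The median log2 difference of the 9 genes from T cells was 7.23, beside 0.27 over all genes tested.

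Cd36 was also found in B cells, with 24 UMIs in WT SC and 14 in KO SC. The difference between ASC and B cells was 1.85 on the log2 scale (SE 0.39, adjusted p = 0.000579, edgeR), and was 1.21 without KO SC (adjusted p = 0.0517), 1.23 without the library block (adjusted p = 0.249) and 1.37 in DESeq2 (adjusted p = 0.0539). In NK cells, Plin2 lost its call without WT IP (1.15, adjusted p = 0.307) as did Cebpa (adjusted p = 0.199), Cebpb lost its call without WT SC (0.88, adjusted p = 0.0656), and Cd36 without the library block (adjusted p = 0.114). Cebpa and Cd36 had 0 UMIs in these NK cells, so their fitted sizes are not given.

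Set against macrophage-like cells, the genes fell on both sides. Cebpd, Lpl, Fabp4 and Zfp423 were higher in ASC, and Cd36, Plin2, Pparg, Cebpa and Cebpb were higher in the macrophage-like cells (edgeR). The fit took in all 4 libraries, but only the 2 of IP fat gave sums of macrophage-like cells. Of all genes, 26.3% were higher in ASC and 16.3% lower. Of the genes lower in ASC, Cd36 had the largest difference, 5.86 on the log2 scale (SE 0.41, adjusted p = 7.05e-09). Plin2 was lower in ASC by 1.87 (SE 0.40, adjusted p = 0.00118) and Cebpb by 1.26 (SE 0.21, adjusted p = 9.41e-05). Cebpd was higher in ASC by 3.54 (SE 0.34, adjusted p = 1.77e-07) and Lpl by 3.31 (SE 0.62, adjusted p = 0.000325), a value that was 5.99 without WT IP, 1.68 without KO IP and 1.34 with a minimum of 4 markers (adjusted p = 0.0328). Zfp423, with 0 UMIs in the macrophage-like cells, was at least 14.4-fold higher in ASC.

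Pparg and Cebpa were the less firm of the genes higher in macrophage-like cells. ASC were lower in Pparg by 1.66 (SE 0.48, adjusted p = 0.0125, edgeR), but the difference was -0.30 without WT IP (adjusted p = 0.789) and -0.92 in DESeq2 (adjusted p = 0.425). Cebpa was lower by 1.51 (SE 0.43, adjusted p = 0.0115), and its call was lost without WT IP (-1.68, adjusted p = 0.124), without KO IP (-1.45, adjusted p = 0.0696) and with a minimum of 4 markers (adjusted p = 0.0705). The Plin2 call was lost without WT IP as well (-1.36, adjusted p = 0.120). Fabp4, higher in ASC by 2.23 (SE 0.49, adjusted p = 0.00162), rested on few macrophage-like cells, since 188 of the 208 UMIs of WT IP came from 1 cell, and was 0.58 with a minimum of 4 markers (adjusted p = 0.221).

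Against the mean of the 3 lymphocyte classes, the macrophage-like cells had more of all 8 genes with UMIs in them that were tested (edgeR), where 19.3% of all genes were higher and 10.2% lower. Among genes with UMIs on both sides, Cd36 had the largest ratio of summed CPM in IP fat, at 535 (counting interval 183 to 2602). It came from 777 UMIs in the macrophage-like cells and 3 in the lymphocytes. Cd36 had 0 UMIs in the NK cells tested, so its fitted size is not given. In the fit, Plin2 was higher by 5.16 on the log2 scale, Cebpd by 4.93 and Cebpb by 2.86. Cebpa, with 0 UMIs in the IP lymphocytes, was at least 46.9-fold higher. Fabp4, with its single strong cell in WT IP, lost its call without that library (5.61, adjusted p = 0.0653).

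A list of 71 further genes of adipogenesis and lipid metabolism was read beside the 10, and 58 of them were tested. Relative to T cells, 42 were higher in ASC and 9 lower in the edgeR test, beside 40.1% and 25.9% of all genes, and relative to macrophage-like cells 27 were higher and 10 lower, beside 26.3% and 16.3%. The highest differences from T cells were those of Rarres2, which encodes the adipokine chemerin, at 12.15 on the log2 scale, of the adipogenic factors Ebf2 (11.34) and Ebf1 (10.82), of the lipoprotein receptor gene Vldlr (10.29), and of Zfp521 (10.19), which encodes an inhibitor of adipogenesis. All 4 tested genes of lipase control were higher in ASC than in T cells, with a median of 6.92. In the macrophage-like cells, 20 were higher than in lymphocytes and 3 lower, beside 19.3% and 10.2% of all genes. Among the leading ones were Apoe (8.39), the receptor gene Lrp1 (7.63), Nr1h3 (6.46), which encodes a sterol-sensing nuclear receptor, and Cav2 (6.45). The Nr1h3 call was lost without WT IP, where its difference was 5.04.

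ASC hold progenitor and preadipocyte states, which were set apart here by 6 markers each, none of them among the 10 genes. Progenitor markers were Dpp4, Pi16, Cd55, Anxa3, Sema3c and Wnt2, and preadipocyte markers were Icam1, Col15a1, Col4a1, Gdf10, Sparcl1 and Adam12. An ASC took the subset with more detected markers. Preadipocyte-marker ASC numbered 40 (WT) and 31 (KO) in SC fat and 219 (WT) and 157 (KO) in IP fat, and progenitor-marker ASC 59, 86, 37 and 37. The preadipocyte share was thus 39.2% (exact binomial 95% interval 29.7 to 49.4) in WT SC and 25.2% (17.8 to 33.8) in KO SC, below the 77.4% (72.1 to 82.1) of WT IP and 73.7% (67.3 to 79.5) of KO IP. With the shared barcodes kept, 90 of the 198 ASC of KO SC carried preadipocyte markers. In IP fat the assignment was less sure, since 51 ASC of WT IP and 67 of KO IP were placed by a lead of 1 marker, against 5 and 6 in WT SC and KO SC.

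The late genes of the cascade were higher in the preadipocyte-marker ASC, while the early factors did not pass the test. Pparg stood at 121 CPM in the preadipocyte-marker and 1.73 CPM in the progenitor-marker ASC of WT SC, at 125 and 1.75 in KO SC, at 43.4 and 1.20 in WT IP, and at 35.3 and 9.82 in KO IP. All 4 libraries pointed the same way without overlap, and the 6 UMIs of the progenitor-marker ASC of KO IP came from 1 cell. In the edgeR test with library as block, Pparg was higher by 4.68 on the log2 scale (SE 0.59, adjusted p = 0.0050). Lpl stood at 2143 against 122 CPM in WT SC, 1805 against 93.4 in KO SC, 1736 against 308 in WT IP and 1503 against 330 in KO IP, a difference of 3.26 (SE 0.40, adjusted p = 0.0042). Plin2 stood at 354 against 56.2, 325 against 27.9, 246 against 36.0 and 162 against 52.4 CPM in the same order, a difference of 2.65 (SE 0.28, adjusted p = 0.0025). In both genes every preadipocyte-marker value lay above every progenitor-marker value.

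Fabp4 and Cebpa were also higher in the preadipocyte-marker ASC, by calls that depended on the libraries used. Fabp4 stood at 1346 against 1.73 CPM in WT SC, 1692 against 0 in KO SC, 508 against 15.6 in WT IP and 298 against 60.5 in KO IP. The preadipocyte-marker values were higher and the progenitor-marker values lower in SC than in IP fat. The difference in the fit was 6.12 (SE 1.27, adjusted p = 0.0252, edgeR), and it was 5.14 without WT SC (adjusted p = 0.0570), 4.99 without KO SC (adjusted p = 0.0503) and 6.85 without WT IP (adjusted p = 0.0740). Cebpa stood at 16.2 against 4.32, 25.4 against 5.24, 18.3 against 7.20 and 18.5 against 4.91 CPM, a difference of 1.82 (SE 0.32, adjusted p = 0.0144), with 1.79 without WT SC (adjusted p = 0.0537) and 1.69 without KO SC (adjusted p = 0.0633). In all, 5 of 8 genes tested were higher and 0 lower, where 3.85% of 8550 genes were higher and 3.31% lower. With the shared barcodes kept, 5 genes were again called, and in the preadipocyte-marker ASC of KO SC Pparg stood at 119, Lpl at 1792, Fabp4 at 1633 and Plin2 at 327 CPM.

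Cebpb, Cebpd and Zfp423 did not pass the test. Cebpb had lower values in the preadipocyte-marker ASC of SC fat (525 against 694 CPM in WT and 406 against 1024 in KO) and higher ones in IP fat (561 against 338 in WT and 554 against 391 in KO), and its fitted difference was -0.11 (SE 0.36, adjusted p = 0.914, edgeR). Cebpd was 0.50 (SE 0.22, adjusted p = 0.226) and Zfp423 -0.48 (SE 0.24, adjusted p = 0.299). Cd36 had too few UMIs to enter the test, with 100 against 0 CPM in WT SC, 104 against 2.62 in KO SC, 15.0 against 4.80 in WT IP and 0.868 against 0 in KO IP. Markers of mural cells, which surround vessels, were higher in the preadipocyte-marker ASC of WT SC, KO SC and WT IP. In KO IP they were nearly equal between the subsets. Their summed level over 8 markers was 210 against 6.05 CPM in WT SC, 87.6 against 15.7 in KO SC, 309 against 91.2 in WT IP and 100 against 98.2 in KO IP. Between 5 and 8 of the 8 were detected in the preadipocyte-marker ASC and between 2 and 7 in the progenitor-marker ASC, with Rgs5, a defining mural marker, at 0 in both subsets of SC fat. In the preadipocyte-marker ASC of KO SC, Myh11 and Acta2 were at 0 as well. The part of these markers in the differences was not tested.

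**Figure D2:**
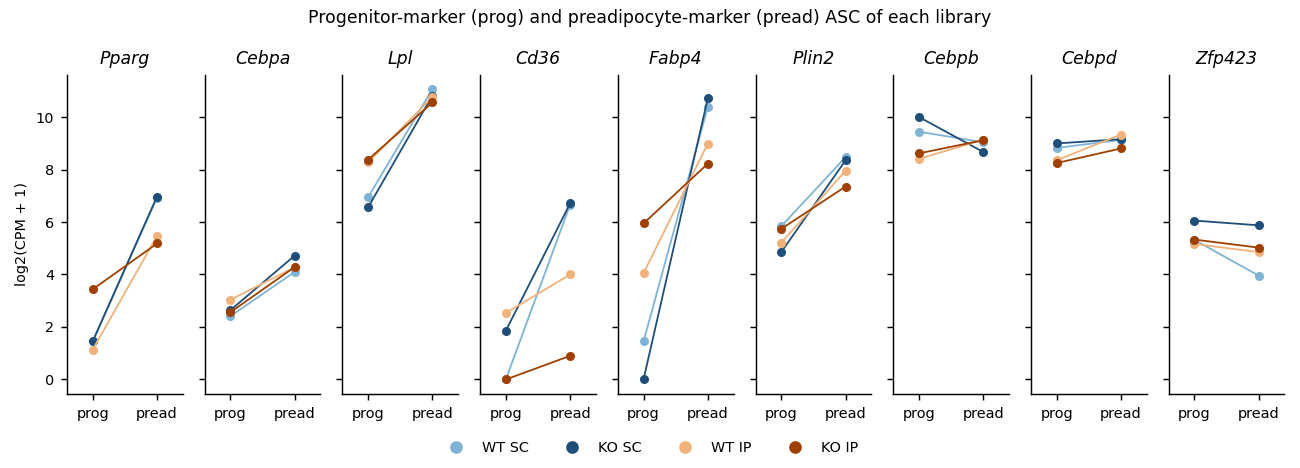
Level of each gene as log2(CPM + 1) in the progenitor-marker and preadipocyte-marker ASC of each library, with a line joining the subsets of a library. No intervals are drawn. Pparg, Lpl, Fabp4 and Plin2 are higher with preadipocyte markers in all 4 libraries, whereas Cebpb changes order between SC and IP fat.

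Of the 71 further genes, 50 were tested between the subsets, and 3 were higher and 3 lower (edgeR), beside 3.85% and 3.31% of all genes. The higher ones were Apoe (4.26, adjusted p = 0.0201), G0s2, which encodes an inhibitor of triglyceride lipase (2.85, adjusted p = 0.0407), and Nr2f2, which encodes a nuclear receptor (1.21, adjusted p = 0.0222). All 3 lost their call without the library block, where their adjusted p was between 0.0617 and 0.108, and without KO SC, where Apoe stood at 3.64, G0s2 at 2.24 and Nr2f2 at 1.06. G0s2 also lost it without WT SC (2.44) or WT IP (3.42), and Nr2f2 without WT SC (1.17) or KO IP (1.09). The lower ones, named after their values were seen, were Wnt10b (-4.75), which encodes an inhibitor of adipogenesis, Mgll (-3.36), which encodes monoglyceride lipase, and Vldlr (-1.04). The median of the 50 was 0.10.

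At the level of single cells, Fabp4 and Pparg were found in the same ASC of SC fat. This split was chosen after values had been seen, and was made after thinning each cell to 5000 UMIs. In WT SC, Pparg was found in 9 of 16 ASC with Fabp4 and in 1 of 58 without it, and in KO SC in 13 of 20 with Fabp4 and in 0 of 80 without it, which allows a share of up to 3.75% of cells with a Pparg UMI at that depth. Cd36 was found in 6 of the 16 and 0 of the 58 in WT SC, which allows up to 5.17% with a UMI, and in 4 of the 20 and 1 of the 80 in KO SC. In IP fat Pparg was found in 15 of 95 ASC with Fabp4 and 11 of 144 without it in WT, and in 9 of 58 and 8 of 113 in KO. The mural markers were summed over a different split, of all ASC by Fabp4 without thinning, with 30 and 72 cells in WT SC. There they stood at 223 CPM in ASC with and 12.7 in ASC without Fabp4 in WT SC. In KO SC they were at 83.3 against 23.2 CPM and in WT IP at 349 against 96.9. The part of the mural markers in the shares was not tested. In KO IP they ran the other way, at 49.6 against 161 CPM.

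Knockout and wild type were compared next in ASC, which addresses whether loss of Tert in endothelium is accompanied by changes in the stromal cells around it. Ratios below are log2 ratios of CPM with 95% intervals, which cover counting error only, and a gene was counted when it differed at least 1.5-fold. In SC fat 1 of the 9 genes with enough UMIs was higher in KO ASC and 0 were lower, beside 9.11% of all genes higher and 9.11% lower. The gene was Zfp423, with 56 UMIs in WT and 102 in KO and 2.01 times the CPM (0.53 to 1.51 on the log2 scale). Its UMIs lay in 31 ASC of WT and 52 of KO. Cebpb was higher by 0.41 (0.30 to 0.53), while Lpl stood at -0.49 (-0.61 to -0.37) and Plin2 at -0.53 (-0.81 to -0.26), all inside 1.5-fold. The median of the 9 was 0.07, beside 0.01 over all genes. With the shared barcodes kept, Zfp423 stood at 61.8 CPM, Lpl at 605 and Plin2 at 115 in KO SC, and 1 gene was again counted. With each cell thinned to 2000 UMIs, Zfp423 had too few UMIs to be compared, and of 5 genes 0 were higher and 1 was lower, Plin2 at -0.73. With means of per-cell CPM, Zfp423 and Cebpa (0.62) were higher and Lpl (-0.68) was lower.

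In IP fat 0 of 9 genes were higher in KO ASC and 2 were lower, beside 10.4% and 6.71% of all genes. Cd36 had 77 UMIs in 21 cells of WT and 3 in 2 cells of KO, a ratio of -3.99 (-6.51 to -2.60), and 25 of the 77 came from 1 cell. Fabp4 had 2480 UMIs in 155 cells of WT and 1117 in 99 cells of KO, a ratio of -0.67 (-0.77 to -0.57). Plin2 at -0.57 (-0.71 to -0.43) and Cebpd at -0.51 (-0.59 to -0.43) stayed just inside the limit, while Cebpb stood at 0.03 and Pparg at -0.17. The median of the 9 was -0.20, beside 0.06 over all genes. With each cell thinned to 2000 UMIs, Cd36 had too few UMIs to be compared and Fabp4 stood at -0.09. Of 7 genes 0 were then higher and 1 was lower, Plin2 at -0.63. Markers of other classes also differed between WT and KO, in both directions. In ASC of IP fat, the 8 macrophage markers summed to 15.3 CPM in WT (7 detected) and 7.26 in KO (6 detected), the mural markers to 261 and 96.7 (8 detected in each), and the mesothelial markers to 145 and 260, with Msln and Lrrn4 at 0 in both. The blood endothelial markers summed to 35.5 CPM in WT (5 detected) and 57.7 in KO (7 detected), with Cldn5 at 0 in both. The 8 adipocyte markers summed to 3 UMIs in WT and 109 in KO, with Lep at 0 in both, and 98 of the 109 were of Car3, the carbonic anhydrase 3 gene. Their part in the Cd36 and Fabp4 ratios was not tested.

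The comparison was repeated within the preadipocyte-marker ASC, since the subset shares differed between the libraries. In IP fat 0 of 9 genes were then higher in KO and 3 lower, Cd36 (-3.90), Fabp4 (-0.77) and Plin2 (-0.60), beside 12.4% and 7.29% of all genes. In the progenitor-marker ASC Fabp4 ran the other way, with 13 UMIs in WT and 37 in KO and a ratio of 1.92. In SC fat 0 of 9 were lower and 2 higher in the preadipocyte-marker ASC of KO, Zfp423 at 1.94 (0.84 to 3.27, from 9 and 25 UMIs) and Cebpa at 0.64 (-0.72 to 2.04), beside 11.6% and 19.5% of all genes. The Cebpa interval included 0. Fabp4 was at 0.33 there (0.19 to 0.48), but 1 cell of KO SC held 224 of its 734 UMIs, and without that cell the ratio was -0.13 (-0.29 to 0.03). Without the top cell of each library it was 0.07 (-0.10 to 0.23). Both values were added after the data were seen. Scaling by the median of ratios would shift the values of that comparison by 0.11.

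**Figure D3:**
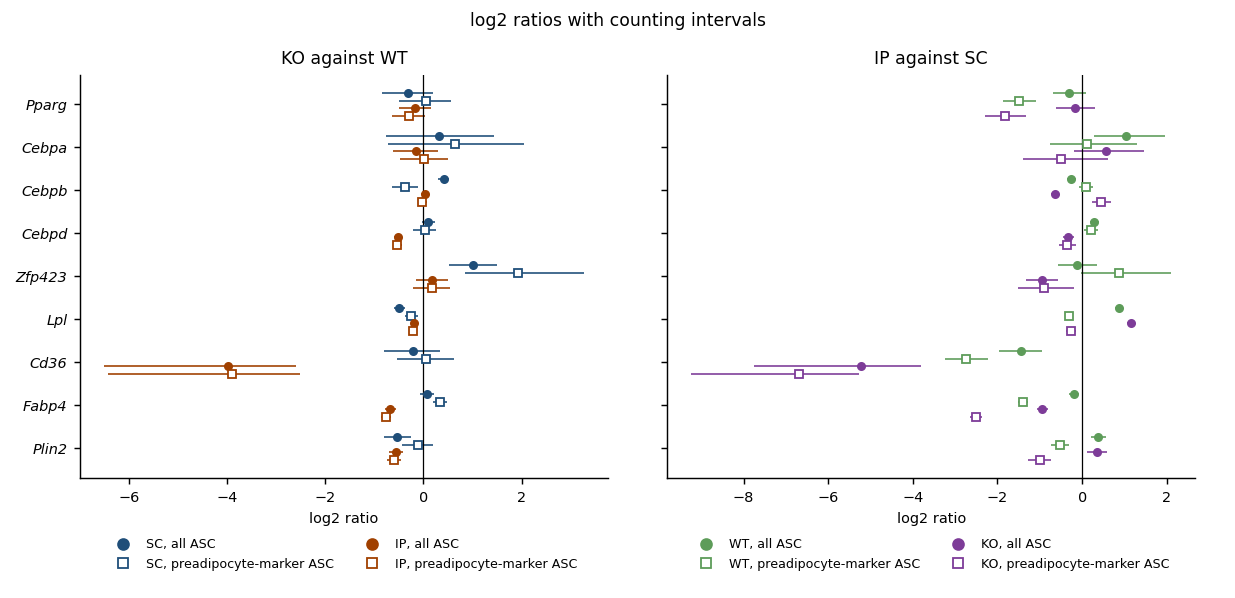
Log2 ratios of CPM for each gene in all ASC (filled circles) and in preadipocyte-marker ASC (open squares). KO is set against WT within each depot, and IP against SC within each genotype. The exact conditional binomial 95% intervals cover counting error only. Cd36 lies far below 0 for KO against WT in IP fat and for IP against SC in KO. Zfp423 lies above 0 for KO against WT in SC fat, and most other values of all ASC lie between -1 and 1. In preadipocyte-marker ASC, Pparg, Fabp4 and Cd36 lie below -1 for IP against SC in both genotypes.

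Among the 71 further genes, 9 of 55 were at least 1.5-fold higher and 3 lower in KO ASC of SC fat, beside 9.11% and 9.11% of all genes, with a median of 0.09. In IP fat 8 of 61 were higher and 4 lower, beside 10.4% and 6.71%, with a median of 0.12. Ranked by the smaller of their 2 ratios, the genes higher in KO in both depots were led by Cdh13, which encodes the adiponectin receptor T-cadherin (1.38 in SC, 0.45 in IP), followed by Wnt10b (0.44 and 1.29), Scd1, which encodes a fatty acid desaturase (0.37 and 0.57), Creb1 (0.49 and 0.35) and Ebf2 (0.30 and 0.59). Among the leading genes lower in both were Angptl4, an inhibitor of lipoprotein lipase (-0.68 and -0.56), Fabp5, a relative of Fabp4 (-0.41 and -0.47), Fasn, the fatty acid synthase gene (-0.18 and -0.29), and Klf2 (-0.11 and -0.51). Ebf2 was not higher in the progenitor-marker ASC of IP fat, where its ratio was -0.18.

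The depots were compared within each genotype. In WT ASC, 2 of 9 genes were at least 1.5-fold higher in IP fat, Cebpa at 1.03 (0.28 to 1.96) and Lpl at 0.86, and 1 was lower, Cd36 at -1.45, beside 19.2% and 13.9% of all genes. In KO ASC, Lpl was higher at 1.16, and Cd36 (-5.22), Zfp423 (-0.96), Fabp4 (-0.94) and Cebpb (-0.63) were lower, beside 21.4% and 12.6% of all genes. The median of the 9 was -0.13 in WT and -0.32 in KO, beside 0.08 and 0.10 over all genes. With the shared barcodes kept, the KO comparison counted 2 genes higher, Lpl (1.10) and Cebpa (0.60), and the same number of 4 lower. Keeping them added 68 Lpl UMIs in KO SC, at 605 in place of 581 CPM, and 41 Fabp4 UMIs, at 497 in place of 486 CPM.

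These depot ratios looked different within the preadipocyte-marker ASC, which made up a larger share of ASC in IP fat. Lpl was no longer higher in IP fat, with a ratio of -0.30 in WT and -0.27 in KO. Pparg, at 121 and 125 CPM in WT SC and KO SC against 43.4 and 35.3 CPM in WT IP and KO IP, had ratios of -1.49 and -1.83. Fabp4 had ratios of -1.41 and -2.51, and Cd36 of -2.74 and -6.70. Plin2 stood at -0.52 and -1.01, although in all ASC it had been higher in IP fat by 0.38 and 0.35. In all, 1 of 9 genes was higher and 3 lower in WT, beside 18.6% and 12.6% of all genes, and 0 were higher and 5 lower in KO, beside 19.5% and 17.2%. The 1 higher gene was Zfp423 in WT at 0.87 (-0.03 to 2.10), whose interval included 0. Zfp423 was lower in KO by the same comparison (-0.89), so that its order between depots was not shared by the genotypes.

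Of the 71 further genes, 14 of 62 were at least 1.5-fold higher and 15 lower in IP than in SC ASC of WT, beside 19.2% and 13.9% of all genes, and 10 of 59 higher and 13 lower in KO, beside 21.4% and 12.6%. The leading higher genes in both genotypes were Sox9 (2.54 in WT, 2.31 in KO), G0s2 (2.27 and 1.76), Apoe (2.84 and 1.61), Nr2f2 (1.13 and 1.14) and Angptl4 (1.03 and 1.15). The leading lower genes were Wnt10b (-3.99 and -3.14), Mgll (-2.86 and -2.60), Cdh13 (-1.88 and -2.80), Bmp4 (-1.17 and -1.28) and Klf4 (-1.04 and -1.68). G0s2, Apoe and Nr2f2 were also those higher with preadipocyte markers. Angptl4 was not higher within the preadipocyte-marker ASC of KO, where its ratio was -0.17.

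The macrophage-like cells of IP fat had the highest levels of Cd36, Pparg and Plin2 among the classes compared, and differed between the genotypes in part of the genes. Of 8 genes compared, 0 were at least 1.5-fold higher and 4 lower in KO, beside 23.4% and 16.4% of all genes. Pparg had 242 UMIs in 46 of 68 cells of WT and 14 in 6 of 23 cells of KO, 214 against 45.4 CPM and a ratio of -2.19. Cd36 had 740 UMIs in 42 cells of WT and 37 in 4 cells of KO, 655 against 120 CPM and a ratio of -2.43. Lpl had 583 UMIs in 35 cells and 7 in 6 cells, 516 against 22.7 CPM and a ratio of -4.41.

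Fabp4, the remaining one of the 4, rested on 188 UMIs of a single cell of WT IP and had 2 UMIs in KO. Plin2 was held more evenly, in 67 of 68 and 23 of 23 cells, at 942 and 714 CPM and a ratio of -0.40. Cebpb stood at -0.27, Cebpd at -0.49 and Cebpa at 0.32. The median of the 8 was -1.34, beside 0.09 over all genes, and scaling by the median of ratios would shift these values by 0.21. The 8 macrophage markers summed to 3635 CPM in WT and 4982 in KO and were all detected in both, dendritic markers to 383 and 536 CPM (6 and 3 detected, with Xcr1 and Clec9a at 0 in both), and ASC markers to 35.4 and 58.4 CPM. The part of these in the ratios was not tested, and with 23 cells in 1 KO library a difference between mice cannot be told apart from one between genotypes.

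**Figure D4:**
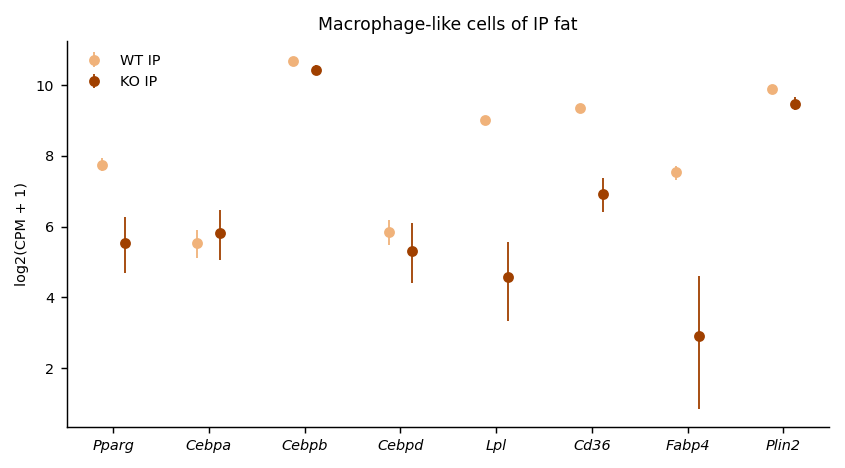
Level of 8 genes as log2(CPM + 1) in the macrophage-like cells of IP fat, 68 cells of WT and 23 of KO, with exact Poisson 95% intervals that cover counting error only. Pparg, Lpl, Cd36 and Fabp4 are lower in KO IP, whereas Cebpa, Cebpb, Cebpd and Plin2 lie close together.

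The genes whose levels ran most like each of them were taken over 19 class-by-library sums, as Pearson correlations of log2(CPM + 10) among 10669 candidate genes. The sums share 4 libraries and 5 classes, so the coefficients describe these points and carry no test. Zfp423 ran closest to Nfatc4 (r = 0.997), Fabp4 to Cxcl1 (r = 0.98), Cebpd to Cd63 (r = 0.98), Lpl to Plau (r = 0.97) and Plin2 to Pcyt1a (r = 0.95). Cebpb was nearest to Cdc42bpg (r = 0.94), Pparg to Stxbp6 and Cebpa to Fnip2 (r = 0.93 for both), and Cd36 to Retnla (r = 0.89), with Pf4 next. Within the group, Fabp4 and Lpl were the most alike pair (r = 0.96), Pparg was most like Cebpa (r = 0.83), and Cd36 and Pparg had r = 0.80. Cd36 and Zfp423 were the least alike pair (r = 0.09), followed by Cebpa and Zfp423 (r = 0.18).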

How the data were processed

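Stromal vascular cells of mouse adipose tissue were profiled on 10x Genomics Chromium in 4 libraries, 1 per group. The deposited values are raw UMI counts of each gene in each barcode. Per the file headers they come from Cell Ranger 7.0.0, and the submitters' processing notes also name STAR 2.6 and mm10. A barcode needed 200 genes or more and no more than 25% mitochondrial UMIs. Scrublet (scanpy 1.11.5, with 5% doublets expected) marked 17 of these (0.411%), so doublets were hardly removed. Cells with markers of more than 1 lineage (33) and cells under 3 markers or tied (211) entered no class. Whether intronic reads were counted is not given in the sources used here.

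Counts were summed per class and library, for sums of at least 20 cells, and tested with edgeR 4.0.16 (quasi-likelihood, TMM, default low-count filter, library as block, Benjamini-Hochberg adjustment at 0.05) in R 4.3.3. The library pairs the classes because each class sum of a library comes from the same loaded suspension. DESeq2 1.42.0 was an alternative. KO against WT and IP against SC had 1 library per side and no test. Genes with at least 20 UMIs over both sides were given as log2 ratios of CPM after adding 0.5 UMI, with exact conditional binomial 95% intervals. A side at 0 was set to 3 UMIs. Levels carry exact Poisson intervals, and no interval holds more than counting error, so the spread between mice is not covered. Sums ranged from 155175 to 9494944 UMIs per class and library among those used.

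Further genes were named by a rule, the 5 highest called differences per class test and, for ratios, the 5 leading genes each way with at least 50 UMIs in each pair of libraries. Some genes that this rule names are not reported here. The genes, the list of 71 and the markers were chosen with earlier results of these data known. Gene positions are from the GENCODE annotation of GRCm38 and promoters from RefSeq. The ratio and fit steps were tested on simulated counts. The scripts used scipy 1.17.1, numpy 2.4.6, pandas 2.3.3 and matplotlib 3.10.9 under Python 3.11.15.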

Additional observations from a re-analysis of the deposited data

Results flagged for a closer look

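The log2 ratio of Fabp4 between the genotypes had opposite signs in the 2 depots. In the preadipocyte-marker ASC the ratio of KO against WT was -0.77 (95% interval -0.87 to -0.66) in IP fat and 0.33 (0.19 to 0.48) in SC fat. The SC value rested on 1 cell of KO SC, which held 224 of 734 UMIs, and was -0.13 (-0.29 to 0.03) without it. Without the top cell of each library the ratio was 0.07 (-0.10 to 0.23) in SC fat and -0.70 (-0.81 to -0.59) in IP fat. These values were added after the data were seen. Over all ASC of SC fat, Fabp4 was seen in 30 of 102 cells of WT and 21 of 123 of KO, in 26.7% and 14.0% of cells thinned to 2000 UMIs, and the mean per-cell CPM was 455 and 378. With 1 library per group, the difference between the depots was not tested.

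Cebpd had opposite depot ratios in the 2 genotypes. In all ASC its log2 ratio of IP against SC was 0.28 (0.18 to 0.39) in WT and -0.32 (-0.44 to -0.20) in KO, and in the preadipocyte-marker ASC it was 0.20 (0.04 to 0.37) and -0.36 (-0.55 to -0.15). This difference was not tested either. A list of 8 genes of tissue handling (Fos, Fosb, Jun, Junb, Egr1, Atf3, Hspa1a and Hspa1b) was summed in the same cells. In all ASC it stood at 7462 CPM in WT SC and 8063 in WT IP, and at 9285 in KO SC and 6438 in KO IP. In the preadipocyte-marker ASC it was lower in IP fat in both genotypes, at 9428 and 8426 in WT and 11895 and 6937 in KO. Its part in the Cebpd ratios was not tested.

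Outside the classes compared above, mural-like cells had Fabp4 at 5611 CPM in WT SC (4 cells), 3441 in KO SC (9 cells), 2742 in WT IP (4 cells) and 1473 in KO IP (9 cells), each above the ASC of its library. In the neutrophil-like cells of KO IP (22 cells), Cebpb stood at 4638 CPM. Both were singled out after their values were seen.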

How the results depend on the processing

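Of 1821 alternative values for single genes, 1623 kept their direction and side of the threshold, or moved by less than their counting interval. No paired analysis was possible because KO and WT, and IP and SC, share only replicate number 1 with 1 library each. For the class tests, dropping the library block left 9 genes called against T cells, 8 against B cells, 8 against NK cells, 9 against macrophage-like cells, 8 between macrophage-like cells and lymphocytes and 5 between the ASC subsets. The 5 subset calls became 3 to 6 when 1 library was left out. The count of KO against WT differences in SC fat (1 gene) became 3 with means of per-cell CPM and 2 with a minimum of 2 markers, and 2 within either ASC subset. The count in IP fat (2) became 1 with a minimum of 100 UMIs, after thinning to 2000 UMIs and in progenitor-marker ASC, and the WT depot count (3) became 1 after thinning. With a minimum of 2 markers, the IP count stayed at 2, but as 1 higher and 1 lower of 9 genes. With median-of-ratios size factors it was 3, all lower. Thinning also left the SC count at 1, but as 0 higher and 1 lower of 5 genes. In IP fat the 1 gene left after thinning was Plin2 (-0.63), while Fabp4 stood at -0.09 and Cd36 was not compared. Within progenitor-marker ASC, KO against WT in IP fat turned to 1.92 for Fabp4 and -0.18 for Ebf2, and the KO depot ratio (log2) of Fabp4 turned to at least 4.53. Within preadipocyte-marker ASC, the depot ratio turned to -0.30 (WT) and -0.27 (KO) for Lpl, and in KO to 0.45 for Cebpb and -0.17 for Angptl4. The subset markers themselves define these alternatives, and the cause of the other changes was not tested. Over all genes, the subset test called 329 higher and 283 lower, and 833 and 720 with no low-count filter. Low UMI counts limit Cebpa, Zfp423 and Cd36 most, and Adipoq could not be compared.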

Other observations

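Small classes that entered no comparison also carried some of the genes, and were looked at after values had been seen. Neutrophil-like cells had Cebpb at 4638 to 6448 CPM in the 4 libraries, above every other class described, and had 0 Lpl UMIs. The 9 blood endothelial-like cells of WT IP had Fabp4 at 1086 CPM, with 175 of 221 UMIs in 1 cell, and Cd36 at 123 CPM. The 29 mesothelial-like cells of KO IP, which line the visceral cavity, had Cebpb at 679, Cebpd at 177, Plin2 at 95.7 and Fabp4 at 30.8 CPM, with 1 Pparg and 3 Lpl UMIs. The 24 dendritic-like cells of WT IP had Plin2 at 166 and Cebpa at 47.8 CPM. Of the 2 macrophage-like cells of KO SC, 1 held 220 Lpl, 32 Cd36 and 6 Pparg UMIs.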
